A study of Mus musculus with 2 samples.

Results

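The Hsd3b family of the mouse comprises the 3-beta-hydroxysteroid dehydrogenases Hsd3b1 to Hsd3b7. The family was chosen for description with earlier results of these data known, and its members were then taken by gene symbol alone, which gave 7 of the 55536 annotated genes. Levels were measured by total RNA-seq in whole adrenal glands of 14-day-old male B6CASTF1/J mice, which are hybrids of a C57BL/6 and a CAST parent. Its 2 libraries, biological replicates 1 and 2, belong to 1 group, so no contrast between conditions exists and no test was made. Each library started from 300 ng of total RNA, was made with a directional kit for samples depleted of ribosomal RNA, and carried ERCC spike-ins. Both tissue samples fall under 1 donor record and are named as pools of males; 1 field of the labels gives both libraries the same pool number and another gives them different ones. The SD may therefore not span separate animals.

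The libraries held 32963248 and 36260745 expected counts, the number of read pairs that the RSEM quantification assigned to its entries. Levels are given in TPM, a unit corrected for transcript length and library size. The 2 libraries differed by more than counting noise (chi-square per degree of freedom of 48.6 over 19525 genes) and were treated as 2 samples. They also differed in markers of other tissues. All 10 hepatocyte markers were over 2-fold higher in replicate 2, and all 9 lymphoid markers were over 2-fold higher in replicate 1. These calls used log2(TPM + 1). By the same rule, 2.9% of the 12535 nuclear protein-coding genes whose mean reached 1 TPM were higher in replicate 2. The share higher in replicate 1 was 1.44%. Markers of the cortex, Star, Cyp11a1 and Cyp21a1 among them, were abundant in both libraries, and so were the chromaffin markers Th and Chga. Fat markers were abundant too: the 6 of the list summed to 2920 TPM in replicate 1 and 2953 TPM in replicate 2. In whole tissue, fewer cells of a type and less RNA per cell cannot be told apart.

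Enzymes of this family act on the hydroxyl group at carbon 3 of the steroid nucleus. The classical members oxidise it and move a double bond, which turns pregnenolone into progesterone, a step that corticosterone and aldosterone both need. In the mouse the family is divided by tissue. Hsd3b1 is the form of the adrenal cortex and gonads, and Hsd3b6 is known from the placenta, the testis and the zona glomerulosa, the outer cortical layer that makes aldosterone. Hsd3b2 and Hsd3b3 are known from liver and kidney. Hsd3b4 and Hsd3b5 act mainly as reductases of 3-ketosteroids, in kidney and liver respectively. Hsd3b7 works on sterols in the synthesis of bile acids rather than on steroid hormones.

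The members are close copies of each other, so their sequences bear on every level given here. The coding sequences of the 6 members on chromosome 3 are each 1122 bases long, and that of Hsd3b7, on chromosome 7, has 1110. The first 90 coding bases of 5 members, from the GENCODE M21 transcripts, are shown from the start codon to let the copies be compared. Capitals mark bases that differ from Hsd3b1.
Hsd3b1: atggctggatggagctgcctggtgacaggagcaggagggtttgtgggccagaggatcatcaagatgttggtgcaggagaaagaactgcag
Hsd3b6: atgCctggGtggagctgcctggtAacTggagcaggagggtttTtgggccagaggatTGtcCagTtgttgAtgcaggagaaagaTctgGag
Hsd3b2: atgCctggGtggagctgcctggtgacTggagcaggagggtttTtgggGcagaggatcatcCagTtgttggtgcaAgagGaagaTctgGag
Hsd3b3: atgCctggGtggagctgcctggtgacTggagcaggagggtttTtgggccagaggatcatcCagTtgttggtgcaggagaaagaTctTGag
Hsd3b5: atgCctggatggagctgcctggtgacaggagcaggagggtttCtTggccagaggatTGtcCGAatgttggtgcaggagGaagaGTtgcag
Hsd3b6 differed from Hsd3b1 at 12 of these 90 bases, Hsd3b2 and Hsd3b5 at 11, and Hsd3b3 at 9. Several of the differences recurred at the same position in more than 1 member. Over the full coding sequence Hsd3b6 was 90.02% identical to Hsd3b1, with 112 mismatched bases, and the longest run without a mismatch was 72 bases. Hsd3b2 and Hsd3b3 were each 89.3% identical to Hsd3b1 and 95.1% identical to each other. Hsd3b6 was closer to Hsd3b2 (94.4%) and Hsd3b3 (94.5%) than to Hsd3b1. Hsd3b4 and Hsd3b5 formed a second close pair, at 95.2%, and were 82.7% and 82.0% identical to Hsd3b1. Hsd3b7 was 53.4% identical to Hsd3b1.

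**Figure D1:**
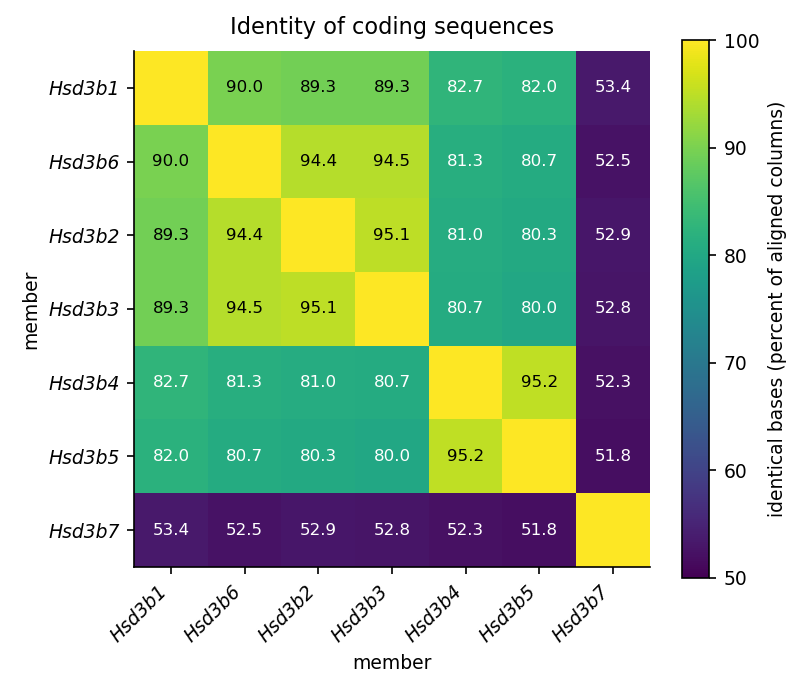
Percent of identical bases between the coding sequences of each pair of members, from global alignments of the GENCODE M21 transcripts. Hsd3b2, Hsd3b3 and Hsd3b6 form a block between 94.4% and 95.1%, Hsd3b4 and Hsd3b5 pair at 95.2%, and Hsd3b7 lies below 54% with every other member.

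To see how far reads of the copies can be told apart, transcript sequences were cut into overlapping words of 31 bases, which were looked up on both strands in all other annotated genes. For Hsd3b1, 87.0% of words occurred in no other gene. Hsd3b6 reached 70.9%, Hsd3b3 88.2%, Hsd3b5 65.9% and Hsd3b2 62.4%. Hsd3b4 had no word of its own, because its transcripts are contained in Gm10681, a neighbouring gene annotated as protein-coding. With words of 100 bases, Hsd3b1 reached 100% and Hsd3b6 96.9%. Hsd3b7 had 11.2% of its words to itself on both strands, and 45.2% when words were looked up on its own strand only, and shared none with the other members. For Hsd3b1 the share was 87.0% either way. Of the words of Hsd3b7, 54.8% lie in Gm49388, a gene annotated on the same strand across it, and 52.4% match 9430064I24Rik on the opposite strand.

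**Figure D2:**
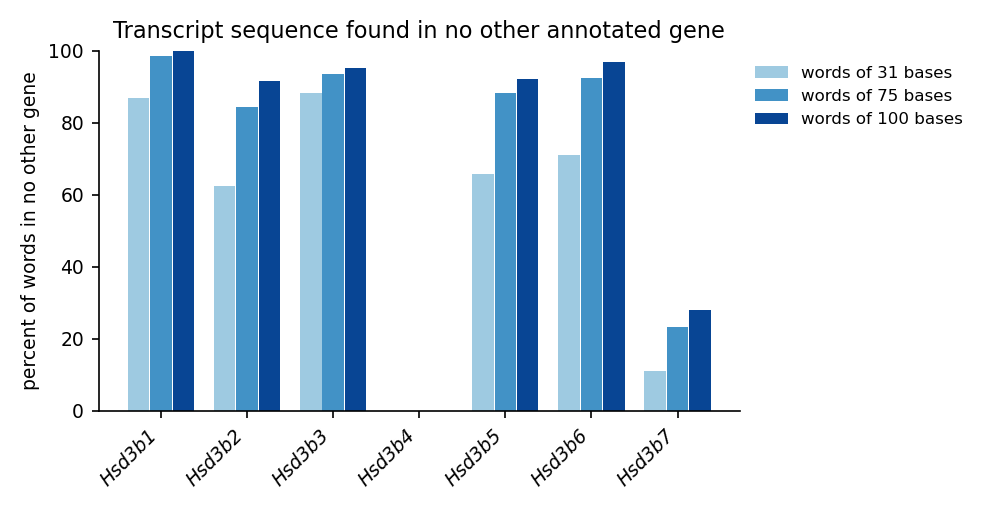
Percent of the words of 31, 75 or 100 bases in each member's annotated transcripts that occur in no other annotated gene on either strand. Hsd3b1 rises from 87.0% to 100% with longer words, Hsd3b4 stays at 0 and Hsd3b7 goes from 11.2% to 27.96%, with 45.2% for words of 31 bases on its own strand, which is not drawn.

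In mm10 with GENCODE M21, 6 of 7 members lie on the minus strand of chromosome 3 within 360724 bases. From the lower coordinate upward they are Hsd3b4 at chr3:98499071-98510514, Hsd3b5 at chr3:98618634-98630252, Hsd3b2 at chr3:98709255-98724543, Hsd3b3 at chr3:98741523-98763127, Hsd3b6 at chr3:98805504-98814443 and Hsd3b1 at chr3:98852194-98859794. The span holds 18 annotated genes, of which 10 are pseudogenes. None of the pseudogenes reached 1 TPM in either library, and 4 had any expected count. Zfp697, a zinc finger gene on the opposite strand that runs across 4 members, was the only gene of the span outside the family at 1 TPM or more, with 1.15 TPM in replicate 1 and 0.93 in replicate 2. Whether strand was used in counting is not given in the sources used here. Hao2, a hydroxy acid oxidase gene that lies beyond Hsd3b1, had 55.5 and 53.9 TPM. Hsd3b7 lies at chr7:127800604-127803802 on the plus strand.

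Hsd3b1, the progesterone-forming enzyme of the cortex, was by far the most abundant member. It measured 1680 TPM in replicate 1 and 1743 TPM in replicate 2, from 90620 and 101941 expected counts. The mean was 1711 ± 44.98 TPM (SD, n = 2), which placed it 6th by mean among 22015 nuclear protein-coding genes. The posterior SD of its counts, RSEM's own error for dividing reads among similar genes, was 0.03 counts in replicate 1 and 0 in replicate 2. RSEM thus assigned almost no read of this gene with doubt, although up to 5.78% of its words were shared with a single relative, Hsd3b6. The deposited credibility bounds were 1634 to 1657 TPM and 1699 to 1721 TPM, and belong to the posterior means of 1646 and 1710 TPM, which lie a little below the TPM itself.

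The family as a whole summed to 1707 TPM in replicate 1 and 1786 TPM in replicate 2, or 1746 ± 56.1 (SD, n = 2). This was 0.622% and 0.643% of all TPM on nuclear protein-coding genes. Hsd3b1 carried 98.4% of the family's TPM in replicate 1 and 97.6% in replicate 2. The other members together held 27.1 and 42.8 TPM.

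Hsd3b6, the isoform of the zona glomerulosa, came next and stood far below Hsd3b1. It measured 16.5 TPM in replicate 1 and 12.9 TPM in replicate 2 (mean 14.7 ± 2.59, SD, n = 2), from 890 and 752 expected counts. The ratio of Hsd3b1 to Hsd3b6 was 6.67 on the log2 scale in replicate 1 and 7.08 in replicate 2, and its mean of 6.88 ± 0.29 (SD, n = 2) is a fold of 117. Of the zona glomerulosa markers, 8 of 8 were detected, that is, at 1 TPM or more in each library. A mean of at least 1 TPM was reached by 12535 of 22015 nuclear protein-coding genes, so this count alone says little about the zone. Cyp11b2, the aldosterone synthase of that zone, had 39.1 and 36.1 TPM. Hsd3b6 lay below it by a log2 ratio of -1.37 ± 0.17 (SD, n = 2).

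Hsd3b7, the bile acid enzyme, had nearly the same mean as Hsd3b6 but a wider spread. It measured 10.1 TPM in replicate 1 and 18.7 TPM in replicate 2 (mean 14.4 ± 6.06, SD, n = 2), from 564 and 1127 expected counts. Its ratio to Hsd3b6 was -0.70 on the log2 scale in replicate 1 and 0.54 in replicate 2. The order of the pair thus turned between the libraries, and their levels did not differ beyond the spread. Gm49388, which overlaps Hsd3b7, was given 0.1 and 0.12 TPM by RSEM. In kallisto, a second quantification of the same reads, it had 2.86 and 3.06 TPM while Hsd3b7 had 10.8 and 22.0 TPM. Hsd3b7 was higher in replicate 2 in both tools.

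The other 4 members were low, and by RSEM none reached 1 TPM in both libraries. By kallisto Hsd3b2 and Hsd3b3 did, and Hsd3b3 also had at least 10 expected counts in each library. Hsd3b3, a liver and kidney form, measured 0.29 TPM in replicate 1 and 8.9 TPM in replicate 2, from 14.2 and 456 expected counts. Hsd3b5, the liver reductase, measured 0.06 and 1.69 TPM, from 3 and 87.2 expected counts. Hsd3b2 measured 0.04 and 0.65 TPM, from 3.4 and 49.5 expected counts. All 3 were low in replicate 1 and higher in replicate 2. Hsd3b4, the kidney reductase, had 1 expected count in replicate 1 and 0 in replicate 2. By counting error alone, a count of 0 allows up to 3 counts, or 0.0827 CPM, counts scaled to the size of the library. The doubt in dividing reads was wider: the posterior SD in replicate 2 was 3.95 counts, and the upper credibility bound 0.329 TPM. No fold is given for Hsd3b4. Since it has no sequence of its own, its counts cannot be told apart from those of Gm10681, which had 0.02 and 0.3 TPM. In replicate 1, 3 of 7 members had under 10 expected counts.

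**Figure D3:**
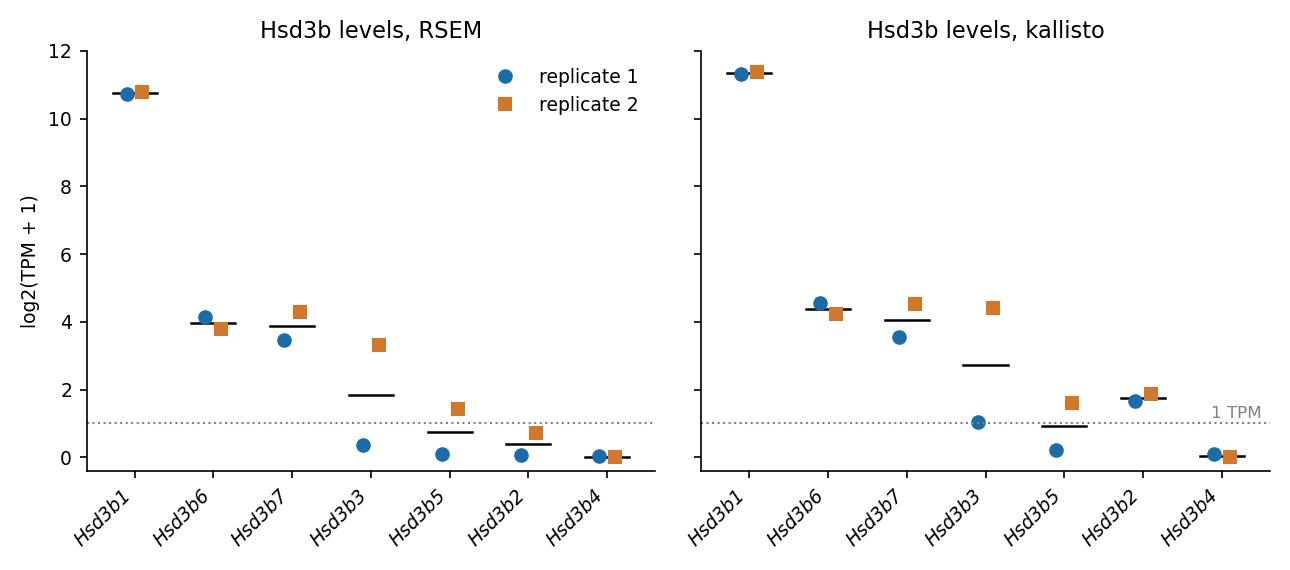
Level of each member in log2(TPM + 1), by RSEM on the left and kallisto on the right, with replicate 1 as circles, replicate 2 as squares and the mean of the 2 as a line. The dotted line marks 1 TPM. Hsd3b1 stands near 1711 TPM in RSEM, Hsd3b6 and Hsd3b7 near 14 TPM with crossing order, and Hsd3b3 and Hsd3b5 differ most between the replicates.

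By mean level in RSEM the order was Hsd3b1, Hsd3b6, Hsd3b7, Hsd3b3, Hsd3b5, Hsd3b2 and Hsd3b4. By mean in kallisto, Hsd3b2 (2.40 TPM) lay above Hsd3b5 (1.12 TPM). Hsd3b3 lay above Hsd3b6 in replicate 2 in kallisto, with 20.1 against 17.7 TPM. The step from Hsd3b1 to Hsd3b6 was far larger than the spread of either. Hsd3b6 and Hsd3b7 overlapped. Hsd3b3 lay below Hsd3b7 in both libraries. Across the libraries the ranges of Hsd3b3, Hsd3b5 and Hsd3b2 overlapped one another, but within each library RSEM gave them in this order. By mean, Hsd3b6 ranked 3880th and Hsd3b7 3938th among nuclear protein-coding genes, and Hsd3b3 ranked 8640th.

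Kallisto gave the same leading member with 2567 and 2627 TPM, 1.52 times the RSEM level, which is also the median ratio of the tools over 8310 nuclear protein-coding genes whose mean reached 5 TPM. Hsd3b6 had 22.6 and 17.7 TPM in kallisto, and Hsd3b3 had 1.06 and 20.1 TPM. The tools disagreed most on Hsd3b2, which kallisto placed at 2.14 and 2.66 TPM, 6.96 times the RSEM mean. All of this signal, 191 and 261 estimated counts, fell on transcript Hsd3b2-202, whose last exon runs 2254 bases past the coding end. In that stretch, 33.8% of the words of 31 bases are shared with 578 genes outside the family. In kallisto Hsd3b2 was also nearly level between the libraries, unlike in RSEM. Whether reads of other genes contribute to it was not tested.

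Beside its neighbours in the steroid pathway, Hsd3b1 was among the most abundant messengers. Star, which carries cholesterol into the mitochondrion, had 1756 and 2099 TPM, and the log2 ratio of Hsd3b1 to it was -0.17 ± 0.14 (SD, n = 2). Star was higher than Hsd3b1 in both libraries, by little more than the spread of the ratio. Cyp11a1, the side-chain cleavage enzyme that makes pregnenolone, the substrate of Hsd3b1, had 762 and 835 TPM. Hsd3b1 exceeded it by 1.10 ± 0.05 on the log2 scale (SD, n = 2), a fold of 2.15. Cyp21a1, the 21-hydroxylase that acts on progesterone, had 973 and 1032 TPM, and Hsd3b1 exceeded it 1.71-fold (log2 ratio 0.77 ± 0.02, SD, n = 2). Cyp11b1, which completes corticosterone, had 650 and 615 TPM, and Hsd3b1 exceeded it 2.71-fold (log2 ratio 1.44 ± 0.09, SD, n = 2). In these comparisons the differences from Cyp11a1, Cyp21a1 and Cyp11b1 were many times the spread between the libraries. That spread does not cover the error of comparing different genes or tools. In kallisto the log2 ratios of Hsd3b1 were 1.10 to Cyp11a1, 0.79 to Cyp21a1 and 1.62 to Cyp11b1. Cyp17a1, which the mouse adrenal is known to lack for most of life, had 2.82 and 3.25 TPM.

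All 10 steroid pathway partners were detected, 7 were higher and 3 lower in replicate 2, and none was past 2-fold. Their median difference was 0.11 in log2(TPM + 1), replicate 2 minus replicate 1, against a median of -0.058 over the 12535 nuclear protein-coding genes whose mean reached 1 TPM. The difference of Hsd3b1 was 0.054, with a direction that turned to -0.030 when levels were scaled to the ERCC spike-ins. Of the 12535 genes, 37.2% were higher in replicate 2, and 21.4% had a smaller absolute difference than Hsd3b1. Its share of all counts in replicate 2 was 1.02 times that in replicate 1, with an exact 95% interval of 1.01 to 1.03 that covers counting error only.

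Among related dehydrogenases and other sterol enzymes outside the family, Nsdhl, the sterol dehydrogenase of cholesterol synthesis, had 5.71 and 7.84 TPM. Hsd3b1 exceeded it 256-fold, by 8.00 ± 0.29 on the log2 scale (SD, n = 2). Hsd17b7, a further enzyme of cholesterol synthesis, had 4.31 and 7.51 TPM, and Msmo1, a sterol oxidase of the same route, had 26.1 and 35.4 TPM. Sdr42e1, a member of the wider short-chain dehydrogenase group, had 0.62 and 1.52 TPM. All 4 were higher in replicate 2, as were 37.2% of the 12535 genes. Their median difference was 0.53 in log2(TPM + 1), and none of the 4 was past 2-fold on that scale. In TPM alone the fold of Sdr42e1 was 2.45.

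Between the libraries, 2 of 7 members were over 2-fold higher in replicate 2 on the log2(TPM + 1) scale, against 2.9% of the 12535 genes. No member was over 2-fold higher in replicate 1, against 1.44% of genes. The 2 were Hsd3b3, with a difference of 2.94, and Hsd3b5, with 1.34. Hsd3b2 had a difference of 0.67, and its call depends on the pseudocount: with 0.1 in place of 1 its difference was 2.42, and 3 of 7 members were past 2-fold. In kallisto its difference was 0.22. Only 4 of 7 members reached the mean of 1 TPM that the background required, and Hsd3b3 was the 1 of these 4 past 2-fold. It ranked 97th among the 12535 genes, but reached the mean of 1 TPM only through replicate 2 (0.29 and 8.9 TPM). Its call and its rank thus rest on the same value that let it pass the filter. Its share of all counts was 29.6 times higher in replicate 2, with an exact 95% counting interval of 17.5 to 54.6. For Hsd3b5 the ratio was 26.4 (8.73 to 130.3) and for Hsd3b2 14.8 (4.79 to 74.5). With 1 library on each side these ratios compare libraries, not conditions.

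Hepatocyte markers were higher in the same library as Hsd3b3 and Hsd3b5. All 10 were detected, their summed level was 356 TPM in replicate 1 against 6049 TPM in replicate 2, and their folds in TPM ran from 7.0 to 21.4. By the same measure the folds were 30.7 for Hsd3b3, 28.2 for Hsd3b5 and 16.25 for Hsd3b2, each over few counts in replicate 1. Alb, the plasma protein albumin, had 173 and 3072 TPM, and Cyp2e1, a liver P450, had 22.1 and 155 TPM. Defining kidney markers stayed at the bottom: 0 of 9 were detected, Umod and Slc12a1 were at 0 in both libraries, and the list summed to 0.84 and 0.54 TPM. The part of liver RNA in the levels of Hsd3b2, Hsd3b3 and Hsd3b5 was not tested.

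Hsd3b7 differed by 0.82 between the libraries, less than 2-fold, and 94.8% of the 12535 genes had a smaller absolute difference. Its count share in replicate 2 was 1.82 times that in replicate 1 (exact 95% counting interval 1.64 to 2.01). The bile acid and oxysterol genes in which Hsd3b7 works divided unevenly. Of 14, 6 were detected, and 12 were higher and 2 lower in replicate 2, where 37.2% of the 12535 genes were higher. The list's median difference was 0.43, and 5 of its genes were over 2-fold higher there, against 2.9% of the 12535 genes. Those 5 were the liver genes Cyp7a1 (0.06 and 1.37 TPM), which opens the classical route of bile acid synthesis, Cyp8b1 (0.43 and 2.88 TPM), the sterol 12-alpha-hydroxylase, Baat (0.08 and 2.81 TPM) and Slc27a5 (0.7 and 13.8 TPM), which conjugate and activate bile acids, and Acox2 (0.59 and 8.2 TPM), which shortens the side chain. Cyp7a1 did not reach the mean of 1 TPM required of the 12535 genes, and the others reached it only through replicate 2. For these others, the call rests on the same value that let the gene pass, so 2.9% is not a like measure. Cyp27a1, the mitochondrial sterol 27-hydroxylase, was nearly level at 6.93 and 7.35 TPM. Cyp7b1, the oxysterol 7-alpha-hydroxylase whose products Hsd3b7 is known to oxidise, had 0.93 and 1.39 TPM. Cyp46a1 and Ch25h, which hydroxylate cholesterol at the side chain, were both under 1 TPM in each library. Akr1d1, the 5-beta-reductase that follows Hsd3b7, had 60.2 and 77.3 TPM. The hepatocyte markers were higher in replicate 2 like Hsd3b7, and their part in its difference was not tested.

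Hsd3b6 was lower in replicate 2 by a difference of -0.34, and 82.4% of the 12535 genes had a smaller absolute difference. Its count share in replicate 2 was 0.768 times that in replicate 1 (exact 95% counting interval 0.696 to 0.847). Of the zona glomerulosa markers, 6 were lower and 2 higher in replicate 2, none past 2-fold. Their median difference was -0.085 and their summed level 434 and 427 TPM. This is near the 12535 genes, whose median was -0.058 and of which 37.2% were higher in replicate 2. Agtr1a, the angiotensin receptor of that zone, measured 68.6 and 56.4 TPM, while the potassium channel gene Kcnk3 measured 180 and 189 TPM. Lymphoid markers were also lower in replicate 2, with sums of 154 and 9.95 TPM and 5 of 9 detected, and their part in the level of Hsd3b6 was not tested. The X-zone, the inner cortical zone of young mice, had 3 markers, all higher in replicate 2. Akr1c18, its 20-alpha-hydroxysteroid dehydrogenase, had 348 and 700 TPM. Markers of Leydig cells and gonads, tissues that also use Hsd3b1 and Hsd3b6, summed to 3.2 and 2.47 TPM, with 1 of 5 detected.

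**Figure D4:**
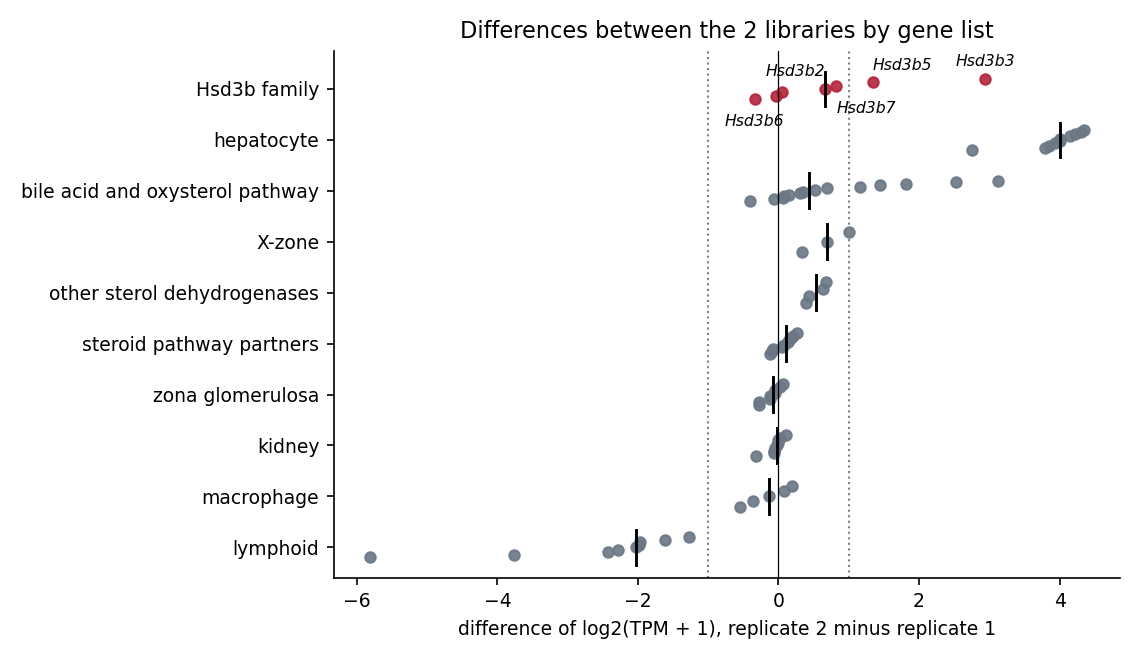
Difference of log2(TPM + 1), replicate 2 minus replicate 1, for the 7 members and for the genes of 9 lists, 1 point a gene, with the list's median as a vertical bar and 2-fold as dotted lines. Hsd3b3 lies at 2.94, Hsd3b5 at 1.34 and the median of the hepatocyte markers at 4.01, while the steroid pathway partners gather near 0.11. The 1 added to TPM shrinks differences of genes at low levels, such as Hsd3b3 and Hsd3b5.

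The genes nearest to each detected member were found by Euclidean distance of log2(TPM + 1) over the 2 libraries, which measures likeness of level in 2 samples only. Hsd3b1 lay nearest to Eef1a1, a translation elongation factor (distance 0.25), and to Star (0.27). Hsd3b6 lay nearest to Dpm2 (0.0062) and Carm1 (0.015). Hsd3b7 lay nearest to Gm4737 (0.072) and Trarg1 (0.15). That both were higher in replicate 2 like Hsd3b7 follows from how they were found.

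Hsd3b1 has 2 annotated transcripts with the same coding sequence. They differ by a non-coding exon of 190 bases, exon 2 of Hsd3b1-202 at chr3:98858152-98858341, which Hsd3b1-201 skips. RSEM gave Hsd3b1-201 1000 and 1041 TPM and Hsd3b1-202 680 and 702 TPM, so that 59.5% and 59.7% of the gene's level fell on the shorter form. Kallisto gave Hsd3b1-201 837 and 889 TPM and Hsd3b1-202 1731 and 1738 TPM. The more abundant form depended on the tool, and within each tool the libraries differed little.

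Of the 3 transcripts of Hsd3b6, Hsd3b6-201 held 76.3% and 80.7% in RSEM, and a mean of 99.98% in kallisto. Hsd3b7 has 13 annotated transcripts. Hsd3b7-201, the form with the full coding sequence, had 6.12 and 13.6 TPM in RSEM, 60.4% and 72.5% of the gene. The 5 transcripts with a retained intron held 28.2% and 18.1% in RSEM and 32.8% and 20.1% in kallisto. Their share was lower in replicate 2, where the gene was higher, in both tools. Hsd3b3 in replicate 2 fell mainly on Hsd3b3-204 in RSEM, with 6.81 TPM, whereas kallisto placed 9.8 TPM on the short Hsd3b3-206, 5.64 on Hsd3b3-202 and 1.98 on Hsd3b3-204. Its gene level was higher in replicate 2 in both tools, and its transcript shares are not determined by these data.

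**Figure D5:**
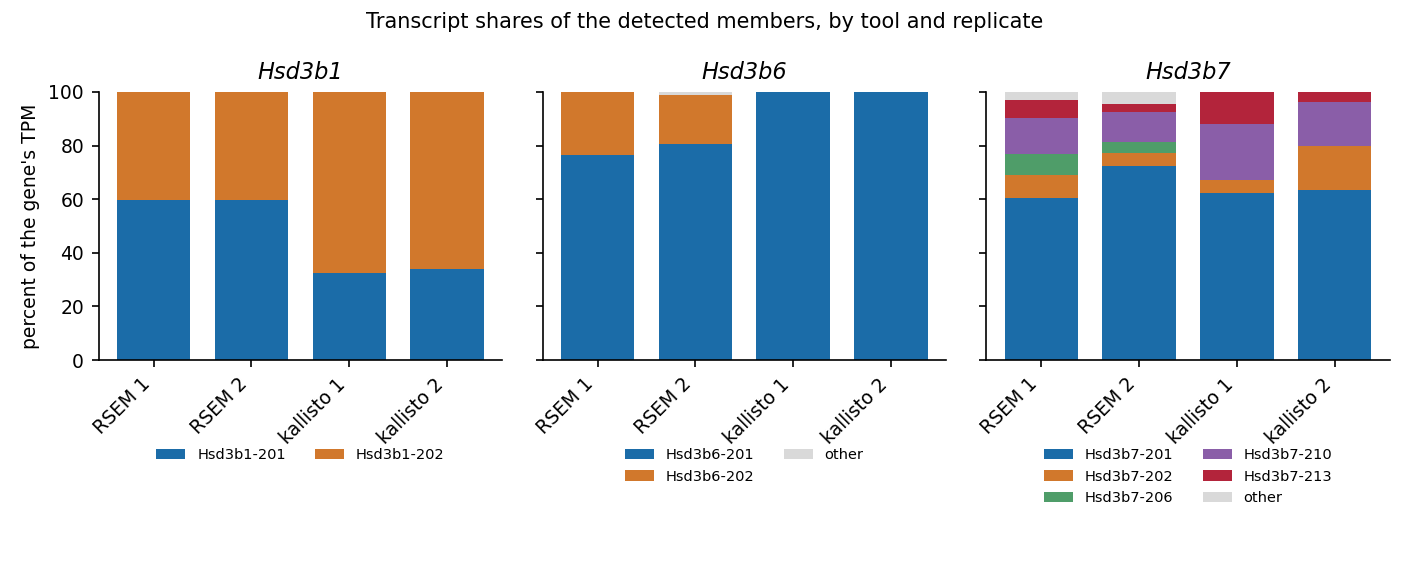
Percent of the TPM of Hsd3b1, Hsd3b6 and Hsd3b7 on each annotated transcript, as stacked bars by tool and replicate, with transcripts under 5% in every bar pooled as other. Hsd3b1-201 holds 59.5% and 59.7% in RSEM and a mean of 33.2% in kallisto, while Hsd3b7-201 leads in all 4 bars.

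The upstream sequences of the members were compared because Hsd3b3 and Hsd3b5 were the members past 2-fold. Promoter windows from RefSeq (GRCm38.p6), 250 bases before each start, matched 7 of 7 members by symbol. Hsd3b3 and Hsd3b5 shared an unbroken run of 24 bases, which among all 32851 promoter windows occurred in these genes only. The longest run in any other pair of members was 11 bases. The run is in capitals, in sequences read along the genes' own minus strand from chr3:98763129-98763378 for Hsd3b3 and from chr3:98645535-98645784 for Hsd3b5.
Hsd3b3: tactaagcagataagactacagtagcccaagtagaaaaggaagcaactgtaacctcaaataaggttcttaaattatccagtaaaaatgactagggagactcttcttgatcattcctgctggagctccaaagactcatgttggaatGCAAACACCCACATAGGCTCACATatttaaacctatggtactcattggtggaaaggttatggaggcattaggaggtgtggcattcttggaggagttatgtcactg
Hsd3b5: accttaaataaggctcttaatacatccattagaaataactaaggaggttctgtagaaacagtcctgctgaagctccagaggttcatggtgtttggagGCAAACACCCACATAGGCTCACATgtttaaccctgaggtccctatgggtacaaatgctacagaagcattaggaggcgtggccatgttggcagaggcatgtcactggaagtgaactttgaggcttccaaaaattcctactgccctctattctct
In local alignment the pair matched at 74.8% of 202 columns, although the coding sequences of Hsd3b3 and Hsd3b5 were 80.0% identical and each has a closer relative in coding sequence. The RefSeq start of Hsd3b5 lies 15282 bases from the GENCODE start, so the window belongs to the RefSeq model only. The shared run is a description of sequence and was not tied to any level.

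Words known from steroidogenic promoters were also searched on both strands of windows of 300 bases, which add 50 bases after the start. The nuclear receptor site core AGGTCA, its longer form CAAGGTCA, which contains it, and the cyclic AMP response element TGACGTCA occurred in none of the windows of the 7 members. They occurred in 16.3%, 1.56% and 1.79% of all 32851 windows. The TATA box TATAAA occurred in 13.6% of windows and, among members, in that of Hsd3b4 only, after the start. The absence of a match says only that these letters are not in these windows.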

How the data were processed

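Total RNA-seq of 2 adrenal gland libraries of 1 group was analysed. Expected counts and TPM per gene and transcript were deposited by the authors and are based on mm10 with GENCODE M21, per the deposited file list. Per the file headers they have the columns that RSEM writes. The aligner and all versions are not stated in what was used here. The deposited posterior mean TPM and credibility bounds are a signal with no fixed total, per the file headers. The deposited percent of each gene's TPM on a transcript was recomputed here. Lengths and the posterior SD of counts are further deposited columns. A second set of estimated counts and TPM deposited by the authors has the column names of kallisto, per the file headers, and was summed here to genes. Reads of CAST alleles were quantified on mm10, and the effect was not measured.

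The family and the gene lists were chosen with earlier results of these data known; within the family every member was taken by symbol, whatever its level. All members were named, with genes of the cluster at 1 TPM or more, the listed markers set beside a member, and the 2 nearest genes by level. Detection required 1 TPM in both libraries. Differences used log2(TPM + 1), with genes of mean 1 TPM or more as background. Errors are SDs over 2 libraries (n = 2); exact 95% intervals cover counting error only. Alternatives were kallisto, posterior TPM, other thresholds and pseudocounts, scaling by edgeR 4.0.16 (TMM), DESeq2 1.42.0 (size factors) or ERCC, each replicate left out, and longer words; expected counts were rounded for size factors. Coding sequences were aligned with Biopython 1.88 (match 2, mismatch -1, gap opening -5, extension -1). Word counting and scaling were tested on simulated data. Protein sequences were not used here.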

Additional observations from a re-analysis of the deposited data

How the results depend on the processing

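Each result was recomputed under other settings. Of 96 values under these settings, leaving out a library apart, 63 stayed, 31 moved and 2 reversed. A value stayed if it moved by less than its error, or by less than 1 percentage point for shares of words. Counts of genes stayed if they moved by at most 1.5 times. A difference also counted as moved if it crossed 2-fold. Some outcomes were fixed in advance: rescaling TPM to another total changes every level, but no share or ratio within a library. The tally is thus a description only. With kallisto the levels were 2597 TPM for Hsd3b1, 20.1 for Hsd3b6 and 2648 for the family, and log2 ratios of Hsd3b1 were -0.37 to Star and 1.62 to Cyp11b1. With TPM rescaled to the total of nuclear protein-coding genes, Hsd3b1 had 6198, Hsd3b6 53.2, Hsd3b7 52.1 and the family 6324. Kallisto detected 5 members, a minimum of 10 expected counts gave 4, with Hsd3b3 added, and leaving out a replicate gave 3 to 5, the latter without replicate 1. The Hsd3b1 difference was 0.13 with TMM scaling, 0.13 with size factors, 0.033 with kallisto and -0.030, reversed, with the ERCC spike-ins. The directions of Hsd3b3, Hsd3b5, Hsd3b6 and Hsd3b7 did not change under the 6 alternatives to their differences, and a pseudocount of 0.1 raised those of Hsd3b3 to 4.53, Hsd3b5 to 3.48 and Hsd3b2 to 2.42, from 0.67, which took the members past 2-fold from 2 to 3 of 7. Genes over 2-fold apart numbered 544, and 216 at a mean of at least 5 TPM, where fewer genes were tested. The share on Hsd3b1-201 was 33.2% in kallisto, which reversed the order of its transcripts, and that on Hsd3b6-201 was 99.98%; the cause was not tested. With words of 75 and 100 bases the share in no other gene was 98.6% and 100% for Hsd3b1, 92.4% and 96.9% for Hsd3b6, and 23.3% and 27.96% for Hsd3b7. No paired analysis was possible because the labels give 1 group. Hsd3b2, Hsd3b4 and Hsd3b5 had under 10 expected counts in replicate 1, which limits their ratios.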
